A study of Mus musculus with 18 samples.

Results

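The 7 genes Angptl2, Angptl4, Angptl6, Angptl8, Lpl, Lipc and Lipg encode angiopoietin-like proteins and the extracellular lipases that some of them restrain. They were chosen by symbol from the 22137 and 24778 genes of the deposited tables, with earlier fold changes and adjusted p of the same libraries known, and all 7 were present in both tables. Their levels and fold changes are therefore a description, and the adjusted p read beside them support nothing further. The tumours were MC38 metastases in the liver (MC38 is a colon carcinoma line of the mouse), grown in wild-type mice by injecting the cells into the spleen. Of the 18 libraries, 5 came from low-fat-fed mice (LFD) and 5 from high-fat-fed mice (HFD). The other table held only high-fat-fed mice, whose tumours were labelled shCon (n = 4, genotype shControl) or shYap (n = 4, the Yap knockdown). The labels give no age, sex or time on diet for any group.

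Lipoprotein lipase and its relatives hydrolyse lipids of circulating lipoproteins, and the freed fatty acids are taken up by the tissue nearby. Angptl4 inactivates lipoprotein lipase by unfolding it, and Angptl8 also lowers its activity, which is how feeding and fasting steer triglycerides between tissues. In liver, hepatocytes are the main source of Lipc and a main source of Angptl8, whereas Angptl2 and Angptl6 are known as secreted signals rather than as lipase inhibitors.

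In the HFD tumours Angptl2 and Angptl4 were higher than in the LFD tumours, and Angptl8, Lpl, Lipc and Lipg were lower. In CPM, the count relative to the scaled size of its library, Angptl4 went from a mean of 39.5 to 113 and Angptl8 from 42.0 to 0.480. Angptl6 was at 3.42 and 2.54 CPM and did not pass the test. Between shCon and shYap the widest gap was that of Angptl4, at 45.0 and 158 CPM, and no gene passed. Genes passed at a Benjamini-Hochberg adjusted p under 0.05 in edgeR's quasi-likelihood test, run over all genes of a table.

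In the libraries labelled shYap the targeted transcript was not detectably lower, so shYap is used below only as the name of a label. Yap1 had 77.9 ± 3.55 CPM in shCon against 75.9 ± 5.62 in shYap (SD, n = 4 each). Its log2 fold change was -0.038 ± 0.11 SE, with an adjusted p of 0.937 in edgeR. Libraries held 17766207 to 18474191 estimated counts in the diet table and 17207214 to 21309950 in the other. The 12 hepatocyte markers summed to 11896 to 111402 CPM in LFD and 589 to 5115 in HFD. All 12 were lower in HFD, against 21.6% of all genes tested. Xist, transcribed from the inactive X of female cells, had 110 ± 23.7 CPM in LFD against 0.169 ± 0.102 in HFD (mean ± SD, n = 5). Diet, liver marker level and Xist thus separated the same LFD and HFD libraries and cannot be told apart between them. In shCon and shYap, both high-fat-fed, Xist was near 0 (means of 0.049 and 0.078 CPM) although their summed hepatocyte markers lay in the range of LFD. Of the carcinoma epithelial markers, Krt20 was at 0 in LFD, and Krt8, Krt18 and the other markers found summed to 54.3 to 543 CPM there and 188 to 359 in HFD. HFD replicates 1 and 2 lay close together, at a biological coefficient of variation of 7.32%, as did replicates 3 and 4 at 6.37%, against 13.0% to 24.5% in the other HFD pairs. The labels do not say whether each library is its own animal, and p-values therefore reflect only how far these samples spread, which may be technical.

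Promoter sequence is shown for genes that moved in opposite directions between the diets, Angptl8 and Lipc (lower in HFD) and Angptl2 (higher). Each is the 250 bases upstream of a RefSeq start on GRCm38.p6, given 5′ to 3′ on the strand of the gene. Capitals mark matches, on either strand, to the motifs searched. Those were CACGTG (in 6.02% of 32851 RefSeq promoters of the same length), ACGTG (16.6%), TATAAA (12.4%), AGGTCA (14.0%), CAAAG (48.6%), GTTAAT (6.43%), CCAAT (33.8%) and GGAATG (12.6%). A match to the first of these also holds the second.
Angptl8, chr9:21835260-21835509, plus strand: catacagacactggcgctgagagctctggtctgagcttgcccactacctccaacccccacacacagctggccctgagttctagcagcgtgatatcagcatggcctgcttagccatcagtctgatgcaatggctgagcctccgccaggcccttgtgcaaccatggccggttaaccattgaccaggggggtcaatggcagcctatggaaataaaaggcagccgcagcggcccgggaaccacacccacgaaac
Lipc, upstream start, chr9:70952222-70952471, minus strand: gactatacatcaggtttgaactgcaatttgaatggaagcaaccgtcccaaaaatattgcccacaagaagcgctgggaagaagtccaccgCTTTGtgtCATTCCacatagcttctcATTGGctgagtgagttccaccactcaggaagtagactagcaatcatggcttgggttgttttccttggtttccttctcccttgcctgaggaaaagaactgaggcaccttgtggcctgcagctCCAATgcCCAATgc
Lipc, start inside the gene, chr9:70934809-70935058, minus strand: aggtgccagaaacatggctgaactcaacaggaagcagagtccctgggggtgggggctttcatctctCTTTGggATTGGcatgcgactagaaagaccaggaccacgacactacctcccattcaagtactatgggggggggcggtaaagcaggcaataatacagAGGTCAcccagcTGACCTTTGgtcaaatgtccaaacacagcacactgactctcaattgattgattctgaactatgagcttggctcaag
Angptl2, chr2:33215711-33215960, plus strand: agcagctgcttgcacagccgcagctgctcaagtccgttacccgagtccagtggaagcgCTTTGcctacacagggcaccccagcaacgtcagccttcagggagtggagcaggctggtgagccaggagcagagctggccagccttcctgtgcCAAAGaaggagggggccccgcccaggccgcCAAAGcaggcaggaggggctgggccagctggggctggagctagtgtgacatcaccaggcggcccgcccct

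The Angptl8 window held none of these letters, so it is printed without capitals. The window of the inner Lipc start held AGGTCA on each strand, a half-site of nuclear receptors, and the second of these matches overlaps one to CAAAG. The window of the upstream Lipc start held CAAAG as well as GGAATG and 3 matches to CCAAT, and that of Angptl2 held 3 matches to CAAAG. With no match in the Angptl8 window, none could be shared with Lipc, and how these genes are regulated was not tested.

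Among the inhibitors, Angptl8 was the gene with the largest fall. It lies on chromosome 9 from 21835510 to 21837347 on the plus strand (GRCm38), within Dock6 on the opposite strand and with no exon base in common. The 5 LFD libraries, replicates 1 to 5, were at 39.8, 16.2, 27.8, 23.8 and 102 CPM. The HFD libraries were at 0.698, 0.859, 0.252, 0.151 and 0.440 CPM, from 3 to 17 estimated counts each. Every HFD library lay below every LFD library, and the log2 fold change was -6.43 ± 0.68 SE, or -5.77 without LFD replicate 5, the highest. Library strand is not given, so reads of Dock6 introns cannot be separated from those of Angptl8. Dock6 itself went from 24.5 ± 4.73 to 15.9 ± 1.05 CPM (SD, n = 5 each). In shCon the Angptl8 values were 3.51, 7.15, 10.2 and 14.9 CPM, and in shYap 8.16, 13.8, 1.81 and 23.8. The shYap group spanned the shCon group on each side, with a log2 fold change of 0.41 ± 0.67 SE.

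Angptl4, which inhibits lipoprotein lipase and is induced by fasting, fatty acids and low oxygen, went the opposite way. It lies on chromosome 17 from 33773750 to 33781830 on the minus strand. LFD libraries were at 63.0, 26.1, 36.3, 25.3 and 46.7 CPM, and HFD libraries at 120, 143, 72.0, 81.5 and 146 CPM. All HFD values were above all LFD values, the nearest being 72.0 and 63.0, and the log2 fold change was 1.51 ± 0.30 SE. The shCon libraries were at 29.2, 50.6, 30.6 and 69.6 CPM and the shYap libraries at 66.1, 101, 312 and 152. Here 3 of 4 shYap libraries were above every shCon library, and the first lay just under the highest shCon value. The log2 fold change was 1.81 ± 0.49 SE with an adjusted p of 0.228 in edgeR, whereas DESeq2 gave an adjusted p of 0.00755. The gap rested in part on shYap replicate 3, without which it was 1.26 (adjusted p = 0.231 in edgeR).

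Angptl2, a secreted protein known from inflamed tissue and tumours, lies on chromosome 2 from 33216069 to 33247717 on the plus strand, inside the antisense gene Ralgps1 with no exon base shared. LFD libraries were at 32.8, 67.7, 33.3, 44.9 and 55.7 CPM and HFD libraries at 134, 150, 116, 124 and 165 CPM. The groups did not overlap, and the log2 fold change was 1.56 ± 0.21 SE. Of 8 fibroblast markers 4 were higher in HFD and 0 lower, where 19.4% of all genes tested were higher. Their sums were 2938 to 5565 CPM in LFD and 6406 to 8509 in HFD. Within LFD the order differed, since replicates 1 and 3 had the highest sums (5565 and 5342 CPM) and the lowest Angptl2. Elsewhere it was mixed. HFD replicate 5 was the highest of its group in both (8509 and 165 CPM), and shCon replicate 4 the lowest in both (4988 and 70.8 CPM). But HFD replicate 1 had the lowest sum (6406 CPM) without the lowest Angptl2. In shYap, replicate 4 had the highest sum (5327 CPM) with Angptl2 at 91.5 CPM. The median sum was 5357 CPM in shCon and 4329 in shYap. The part of these markers in the Angptl2 values was not tested. The shCon libraries were at 101, 98.7, 113 and 70.8 CPM and the shYap libraries at 122, 87.8, 203 and 91.5, which overlapped. Angptl6, known from liver and from energy metabolism in mice, was low everywhere, on chromosome 9 from 20873808 to 20879727 on the minus strand. It ranged from 1.76 to 5.86 CPM in LFD, 1.76 to 2.83 in HFD, 0.972 to 2.52 in shCon and 1.81 to 4.31 in shYap. The groups overlapped in both comparisons, with log2 fold changes of -0.41 ± 0.31 and 0.74 ± 0.40 SE. Its exons share 265 bases, 16.8% of their length, with the antisense gene A230050P20Rik, so its counts are uncertain by the same lack of strand.

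**Figure D1:**
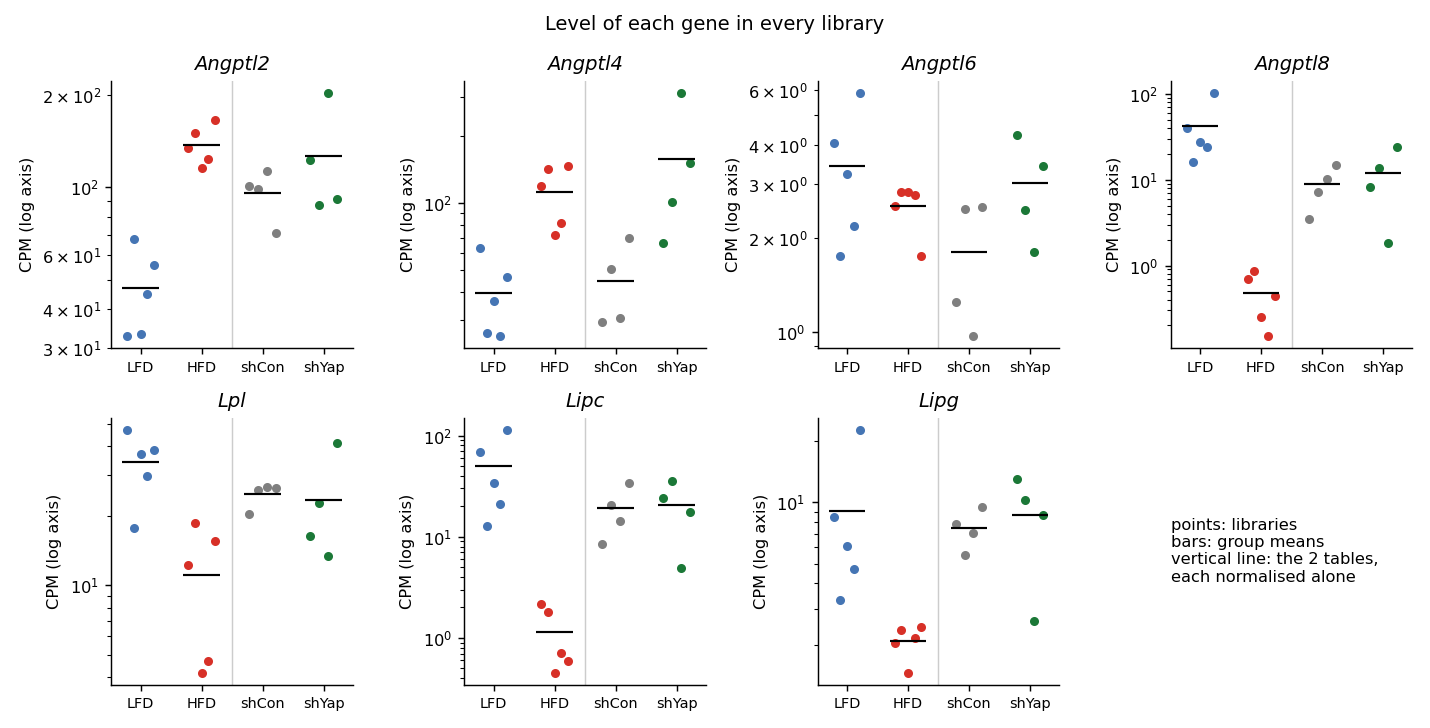
CPM of each gene, on a log axis, in every library of the 4 groups; points are libraries, black bars are group means, and the vertical line parts the separately normalised tables. Angptl8 and Lipc drop from LFD to HFD without overlap, Angptl2 and Angptl4 rise without overlap, and in shYap replicate 3 Angptl2 and Angptl4 have their highest values.

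Among the lipases, Lipc, the hepatic lipase that hydrolyses lipids of remnants and high-density lipoprotein, had the largest fall. It lies on chromosome 9 from 70798128 to 70952226 on the minus strand. LFD libraries were at 68.7, 12.7, 34.2, 21.2 and 114 CPM and HFD libraries at 2.14, 1.82, 0.453, 0.704 and 0.587 CPM. The HFD values, from 9 to 43 estimated counts, were all below those of LFD, at a log2 fold change of -5.45 ± 0.75 SE. The shCon libraries were at 8.56, 20.7, 14.2 and 34.4 CPM and the shYap libraries at 24.4, 35.2, 4.88 and 17.5, with no consistent order (0.077 ± 0.57 SE on the log2 scale).

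Lpl, the lipoprotein lipase that frees fatty acids from triglyceride-rich particles, lies on chromosome 8 from 68880491 to 68907448 on the plus strand. LFD libraries were at 47.1, 17.6, 36.9, 29.8 and 38.7 CPM and HFD libraries at 12.3, 18.7, 4.18, 4.68 and 15.5 CPM. The groups overlapped, since HFD replicate 2 lay above LFD replicate 2, and the log2 fold change was -1.62 ± 0.44 SE (adjusted p = 0.0161). HFD replicates 3 and 4, the closest pair, had the lowest values. The shCon libraries lay between 20.4 and 26.7 CPM and the shYap libraries between 13.3 and 41.4, around nearly the same mean (24.8 and 23.5 CPM, log2 fold change -0.079 ± 0.32 SE). Lpl is also made by adipocytes and macrophages. The 8 macrophage markers summed to 1866 to 3897 CPM in LFD and 2431 to 3201 in HFD. Of the 6 markers of Kupffer cells, the resident macrophages of liver, 3 were lower and 0 higher in HFD (median -1.71). Of all genes tested 21.6% were lower and 19.4% higher. The Kupffer cell markers summed to 83.4 to 233 CPM in LFD and 16.4 to 80.2 in HFD, without overlap. Their part in the Lpl values was not tested. Adipocyte markers summed to 0.0524 to 4.85 and 1.21 to 5.61 CPM, with Adipoq and Plin1 not listed.

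Lipg, the endothelial lipase that acts mainly on phospholipids of high-density lipoprotein, lies on chromosome 18 from 74939322 to 74961263 on the minus strand. LFD libraries were at 8.45, 3.32, 6.10, 4.71 and 22.6 CPM and HFD libraries at 2.04, 2.37, 1.46, 2.16 and 2.44 CPM. The groups did not overlap and the log2 fold change was -2.09 ± 0.49 SE. It was -1.40 without LFD replicate 5, which was the highest. Of the 8 endothelial markers 1 was lower in HFD and 0 were higher, where 21.6% of all genes tested were lower and 19.4% higher. Their sums were 121 to 236 CPM in LFD and 109 to 157 in HFD. Lipg ranged from 5.48 to 9.49 CPM in shCon and from 2.61 to 13.0 in shYap (0.21 ± 0.41 SE on the log2 scale).

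Counted together, 6 of the 7 genes passed between the diets, 2 higher and 4 lower, where 41.1% of the 16340 genes tested passed, 19.4% higher and 21.6% lower. No overlap between the diets was found in 5 of the 7, against 30.6% of all genes tested. The median log2 fold change was -1.62 for the 7 genes and -0.0018 for all genes. Since these same contrasts were known when the genes were chosen, nothing is read from these shares. Between shCon and shYap 0 of the 7 passed, with 0% of 16571 genes passing in edgeR, and the groups overlapped in all 7, against 6.57% of genes without overlap. Unadjusted p was under 0.05 for 1804 genes in edgeR, of the members only for Angptl4 (0.00522), and the smallest adjusted p was 0.149. DESeq2 called 410 genes, Angptl4 among them, and limma voom called 0.

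**Figure D2:**
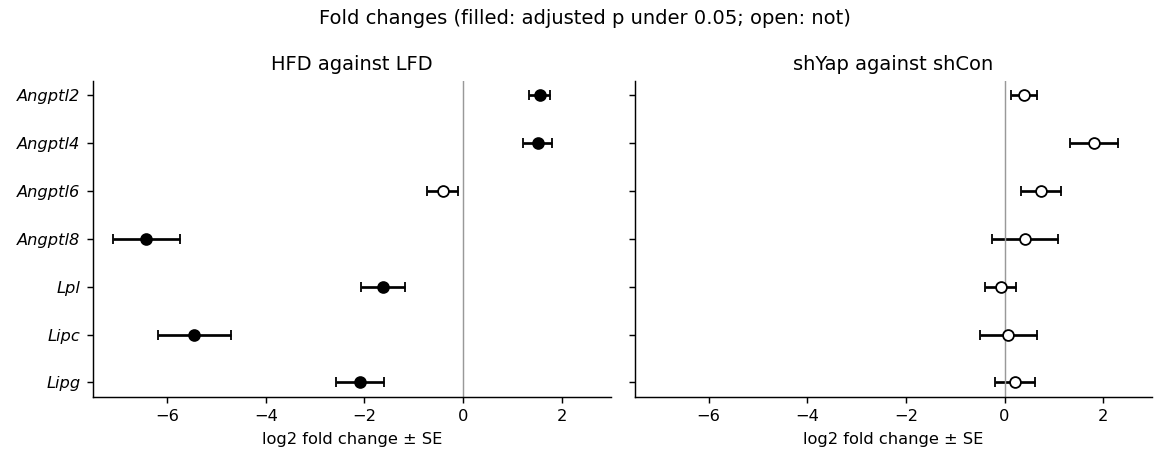
Log2 fold change of each gene (x axis) with its SE (bars), for HFD against LFD on the left and shYap against shCon on the right; filled points passed an adjusted p of 0.05 in edgeR. The 4 falls and 2 rises between the diets are filled, and all points on the right are open, with Angptl4 farthest from 0 at 1.81.

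Divided by exon length, the order of the genes differed between the diets. In LFD Angptl8 led at 48.6 ± 40.3 CPM per kb, followed by Lipc (23.3 ± 19.3), Angptl4 (11.2 ± 4.45) and Angptl2 (7.46 ± 2.39), with Lpl, Angptl6 and Lipg at 3.25, 2.16 and 1.92 (SD, n = 5). The SDs of Angptl8, Lipc, Angptl4 and Angptl2 overlap, as do those of Lpl, Angptl6 and Lipg, and that of Lipc reaches Lpl. The order was not the same in each library. In LFD replicate 2 Angptl8 was at 18.7, Angptl2 at 10.8, Angptl4 at 7.36 and Lipc at 5.93 CPM per kb. In HFD Angptl4 (31.8 ± 9.73) and Angptl2 (21.9 ± 3.17) stood well above the other 5 genes, which lay between 0.445 and 1.61 CPM per kb. In shCon Angptl2, Angptl4, Angptl8 and Lipc lay between 9.05 and 15.3 CPM per kb with overlapping SDs, above Lpl, Lipg and Angptl6 (1.14 to 2.37). In shYap Angptl4 had the highest mean, at 44.6 ± 30.7 (SD, n = 4), and Angptl2 was at 20.1 ± 8.49, with overlapping SDs. The Angptl4 mean leaned on replicate 3, at 88.2, and in replicate 1 Angptl2 (19.5) lay above Angptl4 (18.7). The shCon and HFD groups were both high-fat-fed, but Angptl8 was at 10.3 and 0.555 and Lipc at 9.05 and 0.531 CPM per kb in them. The tables were normalised apart, and no test was made across them. The summed hepatocyte markers of shCon, 11977 to 43541 CPM, lay within the range of LFD and above that of HFD.

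Ratios of counts within a library do not depend on the scaling of libraries. Angptl4 had 1.17 ± 0.256 counts per Lpl count in LFD (0.849 to 1.48) and 12.3 ± 4.65 in HFD (7.66 to 17.4). Every HFD library had a higher ratio of the inhibitor to its target enzyme than any LFD library. The ratio was 1.79 ± 0.657 in shCon and 8.89 ± 9.70 in shYap, where replicate 3 stood at 23.4 and the other 3 between 3.67 and 4.43, all above the highest shCon value of 2.64. Alb, the gene of the main protein that hepatocytes secrete, fell by 4.66 on the log2 scale. Angptl8 had 2.43 ± 0.650 counts per 1000 Alb counts in LFD (1.53 to 3.04) and 0.916 ± 0.482 in HFD (0.454 to 1.50). The nearest libraries, at 1.53 and 1.50, differed by less than 1 Angptl8 count was worth, the HFD value resting on 5 counts, so their order lies within counting error. Lipc had 2.62 ± 0.402 in LFD and 2.14 ± 1.11 in HFD (0.962 to 3.77), which overlapped. In bulk tissue fewer hepatocytes and less RNA per hepatocyte cannot be told apart. In shCon and shYap the same ratios were 0.807 ± 0.150 and 0.548 ± 0.223 for Angptl8, and 1.76 ± 0.252 and 1.19 ± 0.794 for Lipc (SD, n = 4 each).

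**Figure D3:**
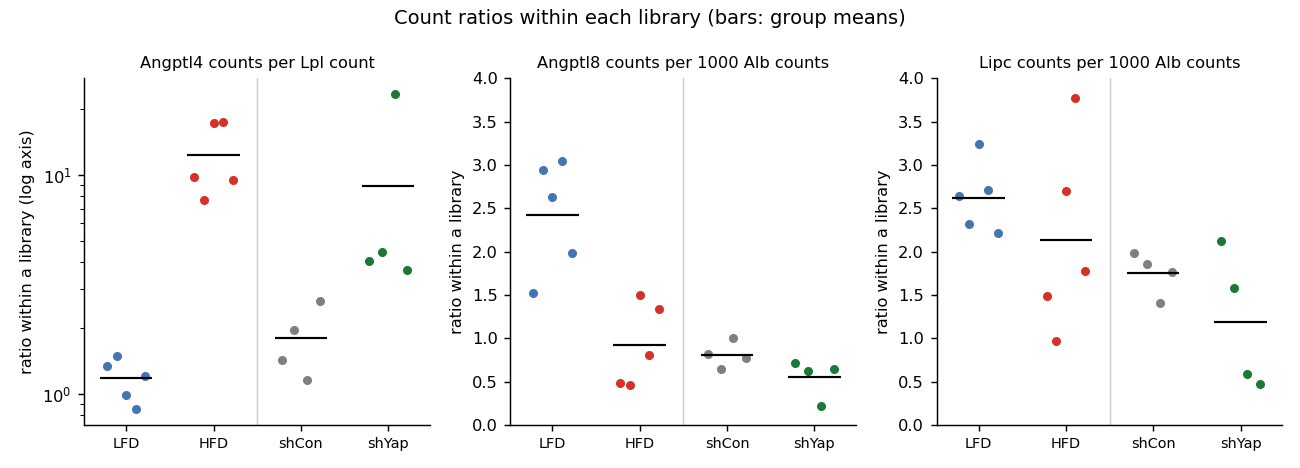
Ratio of counts within each library (y axis, counts per count on a log axis for Angptl4 over Lpl, counts per 1000 Alb counts for Angptl8 and Lipc) in the 4 groups; points are libraries and bars are group means. Angptl4 over Lpl is 7.66 to 17.4 in HFD and 0.849 to 1.48 in LFD, Angptl8 over Alb is 1.53 to 3.04 in LFD and 0.454 to 1.50 in HFD, with the nearest libraries within counting error, and Lipc over Alb overlaps.

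The hepatocyte markers were lower in HFD beside the 4 genes that fell. The mean log2 CPM of the 12 markers was 10.7 ± 1.40 in LFD (9.22 to 12.5), 6.03 ± 1.41 in HFD (4.65 to 7.61), 10.06 ± 0.806 in shCon and 10.46 ± 1.001 in shYap. With this level as a covariate, which correlates with the HFD label at -0.88, the log2 fold changes of Lpl and Lipg turned to 0.20 and 0.38 and no longer passed, that of Lipc was -1.42 and that of Angptl8 -3.18. Angptl4 was then at 2.95 and Angptl2 at an adjusted p of 0.0588 in edgeR. The covariate cannot separate liver share from diet.

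**Figure D4:**
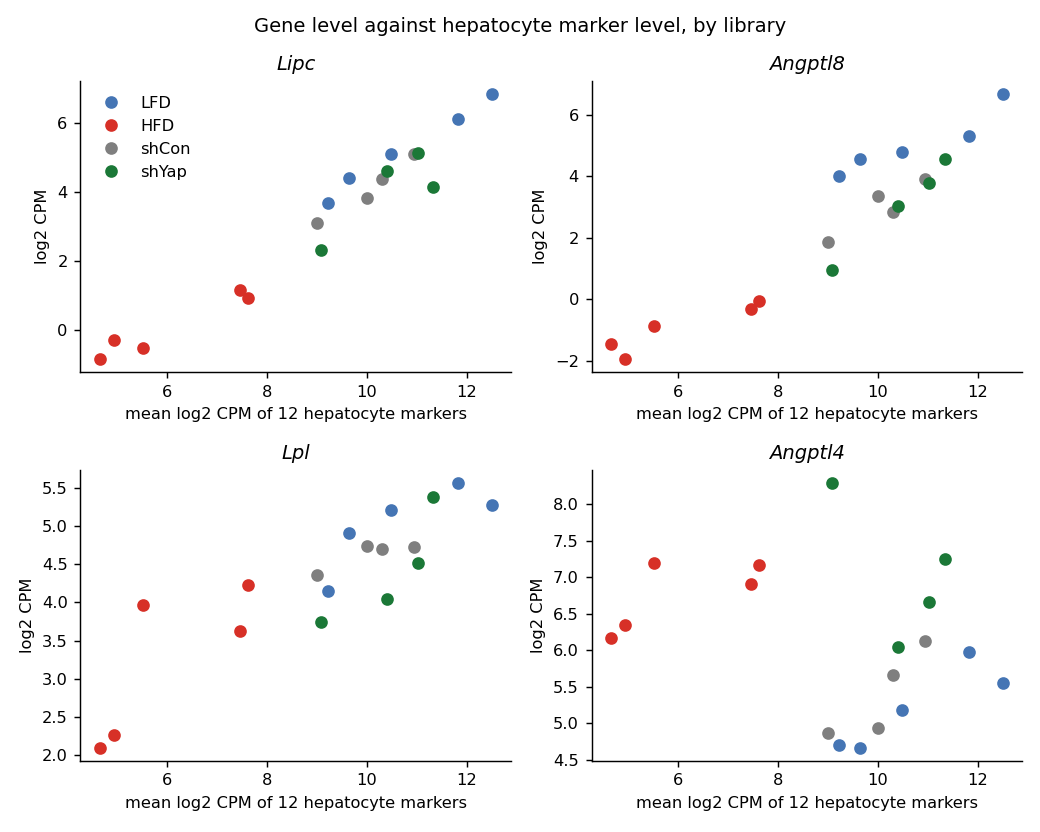
Log2 CPM of Lipc, Angptl8, Lpl and Angptl4 (y axes) against the mean log2 CPM of 12 hepatocyte markers (x axis); each point is a library, coloured by group. HFD libraries, at 4.65 to 7.61 on the x axis, hold the lowest Lipc and Angptl8 values, whereas their Angptl4 values lie above those of all LFD libraries.

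Of the other angiopoietin-like and secreted lipase genes, 1 of 6 tested was higher and 3 were lower in HFD, where 19.4% of all genes tested were higher and 21.6% lower. Lcat, which esterifies cholesterol on high-density lipoprotein, fell by 3.89 on the log2 scale. Pla1a, a phospholipase of phosphatidylserine, fell by 1.34 and Angptl7 rose by 1.96 ± 0.45 SE. Of the 8 apolipoproteins that activate, inhibit or carry substrate for the lipases, all 8 fell (median -3.95), among them Apoc1 (-5.59 ± 0.71), Apoa2 (-5.44 ± 0.76), Apoc3 (-4.94 ± 0.69), which restrains lipoprotein lipase, and its activator Apoc2 (-1.46 ± 0.44). Of 5 proprotein convertases, enzymes that can cleave these lipases and Angptl proteins, 4 were lower and 0 higher, such as Pcsk6 (-3.06 ± 0.83) and Pcsk5 (-1.92 ± 0.58). The hepatocyte markers fell in the same libraries, and Apoa1 and Apoa2 are themselves among those markers.

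The genes that fold, export and anchor lipases were mixed, with 3 of 10 higher and 2 lower in HFD (median -0.32), close to the 41.1% of all genes that passed. Lmf1, a maturation factor of the lipases in the endoplasmic reticulum, fell by 0.88, from 32.0 ± 11.8 to 17.3 ± 0.664 CPM, and the chaperone Hsp90b1 fell by 0.52. Hspg2, the heparan sulfate proteoglycan perlecan, rose by 0.73 ± 0.18. Gpihbp1, which carries Lpl to the capillary lumen, was at -0.54 ± 0.39 (adjusted p = 0.297 in edgeR). Of a list of receptors and proposed partners of Angptl proteins, 3 of 10 were higher and 1 lower, a share near the 41.1% of all genes tested that passed, so the count says nothing about the list. Itgb3, an integrin subunit, rose by 1.74 ± 0.25, from 11.4 ± 4.64 to 37.9 ± 4.30 CPM, the adhesion receptor Cdh11 rose by 1.46 ± 0.38, and the oestrogen receptor gene Esr1 fell by 0.55.

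Of 12 uptake genes downstream of the lipases 7 were lower and 3 higher in HFD (median -0.89). Of all genes tested 21.6% were lower and 19.4% higher. The hepatocyte markers fell in the same libraries, and their part in these values was not tested. The fatty acid carrier Fabp5 fell by 2.34, from 24.7 ± 9.86 to 4.86 ± 1.13 CPM, and Sort1, a sorting receptor that binds Lpl, fell by 1.79, but the fatty acid transporter Slc27a1 rose by 1.33 ± 0.11, from 37.3 ± 6.49 to 93.7 ± 2.91. Of 9 intracellular lipases and their regulators 6 were lower and 1 higher, beside the same shares of all genes. Mgll, the monoglyceride lipase, fell by 2.89, and G0s2, which inhibits adipose triglyceride lipase, fell by 3.21. Hilpda, an inhibitor of the same lipase that low oxygen induces, rose by 0.83 ± 0.13, from 9.08 ± 1.60 to 16.1 ± 1.50 CPM.

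Of 10 lipogenic and insulin-linked genes around Angptl8, 8 were lower and 1 higher (median -1.63), where 21.6% of all genes tested were lower and 19.4% higher. The hepatocyte markers fell in the same libraries, and their part in the values of these lists was not tested. Mlxipl, the carbohydrate-response factor ChREBP, fell by 5.20 and its target Pklr fell by 4.68, while Fasn fell by 1.80 and the insulin receptor gene Insr fell by 0.95. Of 12 PPAR and glucocorticoid genes, which include regulators and co-targets of Angptl4, 5 were lower and 2 higher (median 0.20). Those higher were Tsc22d3 (1.07 ± 0.32) and Acot2 (0.52 ± 0.17). Ppara fell by 4.10 and Pparg fell by 2.17, whereas Pdk4, a PPAR target, was at 0.68 ± 0.57 (adjusted p = 0.367 in edgeR). Of 11 hypoxia targets 4 were higher and 0 lower (median 0.24), namely Ankrd37 (1.50 ± 0.41), Ndrg1 (0.84 ± 0.18), the glucose transporter gene Slc2a1 (0.72 ± 0.22) and Hif1a (0.30 ± 0.09). Of the hypoxia list 7 of 11 did not pass, and of the PPAR and glucocorticoid list 5 of 12. Of all genes tested 41.1% passed, 19.4% higher and 21.6% lower. The median log2 fold change over all genes tested was -0.0018.

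In shYap against shCon none of these lists held a gene that passed in edgeR, as for 0% of all genes. The median log2 fold change of the hypoxia list was 1.47, against 0.027 for all genes. Pgk1, a glycolytic enzyme, was at 95.3 ± 13.4 CPM in shCon and 187 ± 68.6 in shYap, Ndrg1 at 38.7 ± 10.8 and 194 ± 206, and Pdk4 at 2.47 ± 2.26 and 19.9 ± 22.8 (SD, n = 4 each). Plin2, which coats lipid droplets, was at 225 ± 81.8 and 377 ± 31.1 CPM, without overlap. The heparan sulfate enzyme gene Glce had 22.7 ± 2.52 CPM in shCon and 43.3 ± 11.7 in shYap.

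Angptl4 and the hypoxia genes were highest together in shYap replicate 3, and elsewhere their orders agreed only in part. The mean log2 CPM of the 11 hypoxia genes was 7.64 there, 5.80 to 6.27 in the other shYap libraries and 5.08 to 5.63 in shCon, so the groups did not overlap. That library also had 501 CPM of Ndrg1, 54.0 of Pdk4 and 64.8 of Hilpda, and it was the lowest of its group in Angptl8, Lpl, Lipc and Lipg. It was the lowest in hepatocyte markers as well, at a mean log2 CPM of 9.07 against 10.4 to 11.3 in the other 3, and in the summed Kupffer cell markers, at 51.0 CPM against 196 to 330. The part of these levels in its values was not tested. Between the diets the hypoxia means, 5.44 ± 0.327 for LFD and 5.70 ± 0.173 for HFD (SD, n = 5), overlapped through LFD replicate 5 alone, at 6.02. The other 4 LFD libraries, at 5.25 to 5.37, lay below every HFD library, at 5.50 to 5.92. Within HFD, replicate 5 had the highest Angptl4, at 146 CPM, and the lowest hypoxia mean, at 5.50. In shYap, replicate 4 had 152 CPM of Angptl4 at a hypoxia mean of 5.83, with the lowest Ndrg1 of its group, 58.5 CPM. By contrast, shCon replicate 4 was the highest of its group in both (69.6 CPM and 5.63) and replicate 1 the lowest in both (29.2 CPM and 5.08). LFD replicate 4 was the lowest of its group in both (25.3 CPM and 5.25). Replicate 1 of LFD had its highest Angptl4 (63.0 CPM) and replicate 5 its highest hypoxia mean. Whether the hypoxia genes and Angptl4 are linked was not tested.

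**Figure D5:**
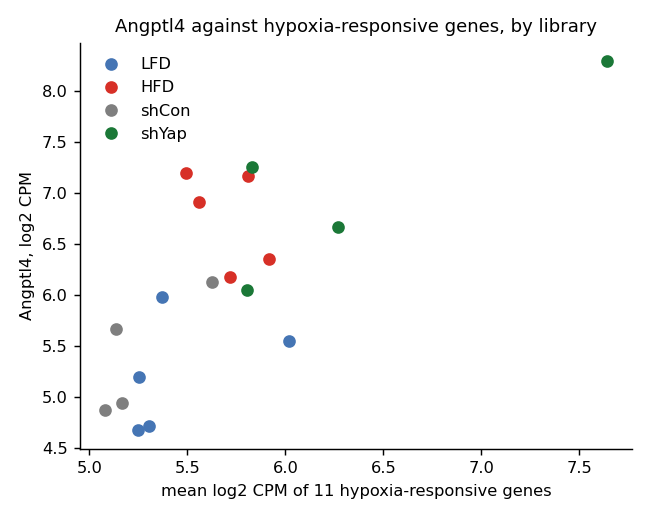
Log2 CPM of Angptl4 (y axis) against the mean log2 CPM of 11 hypoxia-responsive genes (x axis); each point is a library, coloured by group. The shYap library at 7.64 on the x axis stands apart, and HFD libraries lie above LFD libraries in Angptl4, with LFD replicate 5 the only LFD library not below their hypoxia means. Within HFD, the library with the highest Angptl4 has the lowest hypoxia mean, whereas within shCon the same library is highest in both.

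The genes whose levels were most like each member were found by Pearson's r of log2 CPM over the 18 libraries, after taking away the group means, among 12043 or 12044 genes of at least 5 CPM. Tissue makeup still varied within groups, with hepatocyte marker sums of 11896 to 111402 CPM in LFD, and the values are a description. With the mean level of the hepatocyte markers, treated alike, r was 0.926 for Lipc, 0.876 for Angptl8, 0.769 for Lpl and 0.684 for Lipg. It was 0.630 for Angptl6, 0.383 for Angptl4 and -0.346 for Angptl2. Saa4 (r = 0.986) and Thnsl2 (0.976) were most like Lipc, Pepd (0.964) and Slc17a4 (0.950) most like Angptl8, and Gm7204 (0.947) most like Lipg. The nearest genes of the rest were less alike, with Dusp28 at 0.885 for Angptl6, Rdh16f2 at 0.881 for Lpl, Adamts7 at 0.873 for Angptl4 and Osr1 at 0.871 for Angptl2. Between members, r was 0.839 for Angptl8 and Lipc, 0.798 for Lipc and Lipg, and 0.108 for Angptl2 and Angptl4.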

How the data were processed

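Tumour RNA was sequenced in 18 libraries, 10 in the table of LFD and HFD and 8 in that of shCon and shYap. The authors deposited estimated counts, not always whole, in 1 table for each comparison. STAR 2.7.3a, Partek and DESeq2 are named without role or order, with the builds GRCm38 and mm10, per the submitters' processing notes. The annotation used for counting, library strand and read length are not given in the sources used here.

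Counts were rounded to whole numbers and fitted within each table by the robust quasi-likelihood F test of edgeR 4.0.16 (R 4.3.3), with TMM scaling, the filter filterByExpr and no covariate, adjusted over all genes by Benjamini-Hochberg with a threshold of 0.05. Standard errors were taken as the size of the log2 fold change over the root of F. CPM use TMM-scaled library sizes, and mean log2 CPM a prior count of 2. Total counts were 17766207 to 21309950 per library. Low counts of Angptl8 and Lipc in HFD limit their fold changes, and no molecular identifiers mark PCR copies. Fits were tested on simulated data.

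The 7 genes, the pathway lists and the marker lists were chosen with earlier results of these data known. Named are the 7 genes, the 3 genes of smallest p in each list between the diets and the 1 of smallest p between shCon and shYap, Yap1, Xist and the likest genes by r. Gpihbp1, Slc2a1, Alb and Dock6 were named outside this rule, after their values were seen, and some genes under it are not reported here. Alternatives were DESeq2 1.42.0, limma voom (limma 3.58.1), RLE or upper-quartile factors, no filter or 1 CPM, a replicate block, a hepatocyte covariate, each library left out, and the close HFD pairs summed. Exon lengths and ends are those of GENCODE on GRCm38, since deposited ends were 1 base higher; promoters are RefSeq's, found for 4 of the 7 genes.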

Additional observations from a re-analysis of the deposited data

Results flagged for a closer look

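Of the 28 sets of 7 genes in 4 groups, 4 held a library far from the others of its group (a gap to the nearest library above Dixon's 95% critical value), where chance gives about 1 in 20. Angptl8 was at 102 CPM and Lipg at 22.6 CPM in LFD replicate 5, the highest of that group in each. Angptl6 was at 1.76 CPM in HFD replicate 5, the lowest of its group. Lpl was at 20.4 CPM in shCon replicate 1, below the other 3. LFD replicate 5 also had the highest hepatocyte marker level, a mean log2 CPM of 12.5, and its part in these values was not tested.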

How the results depend on the processing

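Between the diets, the direction and call of single genes were the same in 128 of 133 recomputations, weaker in 2 and reversed in 3. With the hepatocyte covariate 1020 genes and 3 of the 7 members passed, Angptl6 turned to 0.84, Lpl to 0.20 and Lipg to 0.38, and Angptl2 missed the threshold. With the close HFD pairs summed 4233 genes and 5 members passed, Lipg at an adjusted p of 0.0505 in edgeR. Leaving out 1 library gave 5523 to 7253 genes and 6 members in each case. Between shCon and shYap 98 of 112 recomputations were the same, 1 was stronger and 13 reversed. DESeq2 called 410 genes and 1 member, Angptl4. Leaving out 1 library gave 0 to 94 genes, 94 without shCon replicate 4 and 1 without shYap replicate 4, and 0 members. Lipc was at -0.035 in limma voom and -0.045 under the replicate block, and with the hepatocyte covariate Angptl8 was at -0.44, Lipc at -0.36 and Lipg at -0.052. With 1 library left out, log2 fold changes ranged from -0.32 to 0.50 for Lipc, -0.50 to 0.14 for Lpl, -0.051 to 0.54 for Lipg and -0.16 to 0.79 for Angptl8. The cause was not tested in any of these.

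With the replicate number as a block 4929 genes and 6 members passed between the diets and 0 between shCon and shYap in edgeR. Same-numbered libraries correlated in their deviations at -0.50 to 0.31 between the diets, where 0 of 5 were best with their own number. Between shCon and shYap they correlated at -0.05 to 0.18, where 1 of 4 was. No pairing by number was seen, and the check cannot show whether such libraries shared handling. Depth limits Angptl8 in HFD, at 3 to 17 estimated counts a library, and intervals on counts cover counting error only.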
